A study of Caenorhabditis elegans with 4 samples.

Results

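The MML-1 peaks described here lie on the arms of autosomes II, III, IV and V of Caenorhabditis elegans. A peak was counted on an arm when its summit fell outside the middle of its chromosome, which ran on the ce10 build between 5.09 and 10.19 Mb on II, 4.59 and 9.19 Mb on III, 5.83 and 11.66 Mb on IV and 6.97 and 13.95 Mb on V. The 8 arms held 235 of the 651 nuclear peaks of ChIP replicate A and 268 of the 742 of ChIP replicate B, called A and B below. Position alone chose them, so width, signal, sharing and spacing had no part in the choice. The arm summits nearest to the boundaries lay 27.7 to 737 kb from them, with folds of 2.87 to 7.15. The nearest summits on the centre side lay 7.60 to 543 kb away, with folds of 3.13 to 6.56.

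The series maps MML-1 on chromatin in wild-type third-stage (L3) larvae by chromatin immunoprecipitation and sequencing (ChIP-seq). It has 2 ChIP samples, made with an antibody against MML-1, and 2 input DNA samples, all 4 from wild-type animals. The synchronised larvae were 36 h past hatching at 20 °C when they were fixed for 30 min with 2% paraformaldehyde, and 2.5 mg of protein extract went into each ChIP. Larvae were not dissected, so a peak averages over all their cells, and no label says that A and B were separate cultures.

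MML-1 is a basic helix-loop-helix leucine zipper protein, a worm relative of the mammalian Mondo factors that respond to nutrients, and it binds DNA together with the Max-like protein MXL-2. Worm autosomes have gene-dense centres with little meiotic crossing over, and arms that recombine more and carry more repeats and repressive chromatin. Near 1 end of each chromosome lies a pairing centre, where zinc-finger proteins gather in meiosis and help homologues find each other. That end is the left arm on II, IV and V and the right arm on III.

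ChIP library A kept 2694061 of 21033213 tags at 1 tag per position and strand, and library B kept 2107570 of 30475457. Control tags kept were 15399728 for A and 27929584 for B, and the headers do not name the input sample behind either, so local controls of A and B are those of the calls. Fold enrichment is the authors' ratio of ChIP pileup to local control at the summit, with 1 added to each. Pileup is the number of extended ChIP tags over the summit. Local control is the caller's scaled control level for that summit, which draws on regional ranges of 1000 and 10000 bp and not on the summit alone. Peaks near each other can therefore share control tags. The lowest local control, 2.34 tags in A and 1.63 in B, is called the genome background and is the floor of these values.

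The arms carried fewer MML-1 peaks per Mb than the centres of the same chromosomes, and they differed widely among themselves. In A there were 5.23 peaks per Mb on the arms and 7.82 in the centres. In B there were 5.96 on the arms and 9.28 in the centres. The right arm of II stood highest, with 8.06 peaks per Mb in A and 11.8 in B. The left arm of II stood lowest, with 1.77 in A and 3.54 in B. Both replicates gave these extremes, while the order of the other arms differed between them.

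The other 6 arms lay between. IV left had 7.38 peaks per Mb in A and 4.80 in B, and V left had 6.89 and 7.89. IV right had 5.31 and 6.0, and V right had 4.30 in both. III right had 3.70 and 3.92, and III left had 3.49 and 5.23.

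**Figure D1:**
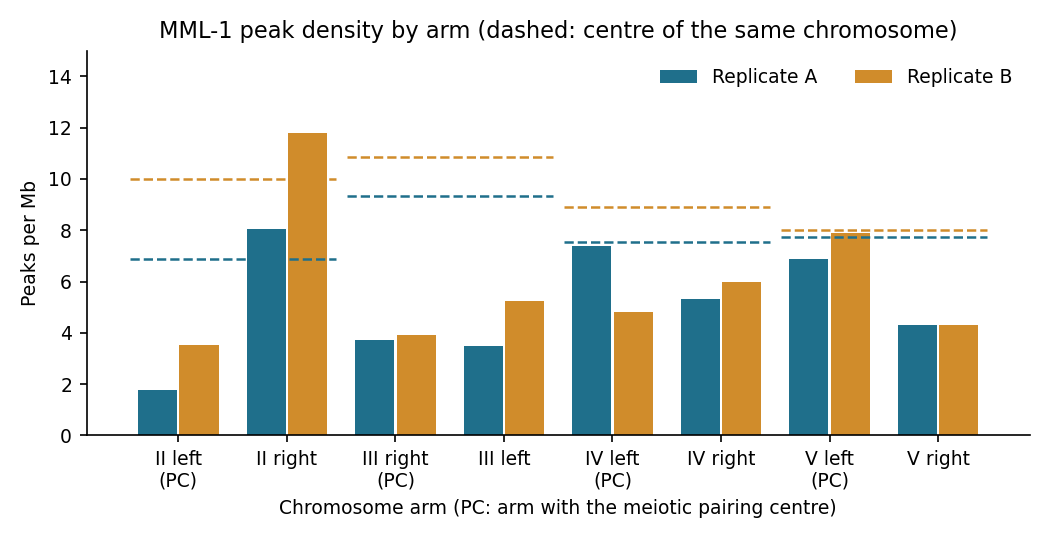
Peaks per Mb on each of the 8 arms in replicates A and B (bars), the pairing centre arm left of the other arm of each chromosome, with the density in the centre of the same chromosome as dashed lines. II right reached 8.06 and 11.8 peaks per Mb, above its own centre, and II left had 1.77 and 3.54.

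To keep neighbouring peaks from being counted several times, sites shared by A and B were joined into groups where their summits lay within 5 kb. The arms held 121 shared sites in 80 groups, and the centres 88 sites in 60 groups. Group density on the arms was 0.667 times that in the centres (95% exact interval 0.472 to 0.949, two-sided exact binomial p = 0.0196). That shared sites crowd in the centres was already known from these lists, so this ratio is no separate evidence for it. Chromosome III had the lowest ratio, 0.301 (0.116 to 0.733), with 9 groups on the arms and 15 in the centre. The ratio was 0.732 (0.343 to 1.61) on II, 0.893 (0.446 to 1.86) on IV and 0.751 (0.399 to 1.447) on V. The interval excluded 1 on III alone, and the pooled ratio without III was not computed.

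The ratio of arms to centres stayed below 1 under every alternative that was run. It no longer passed where sharing required summits within 100 bp (0.782, exact binomial p = 0.182) or where only the upper 50% of peaks by q was used (0.644, exact binomial p = 0.0573). The lengths include any bases on which reads cannot be placed, and their part in the ratio was not tested.

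No difference in group density was detected between the pairing centre arms and the other arms as sets. Each set held 40 groups, a density ratio of 1.00 (exact interval 0.629 to 1.59, exact binomial p = 1). Chromosomes II and V differed from this in opposite directions. On II the pairing centre (left) arm held 4 groups and the right arm 15, a ratio of 0.267 (0.0644 to 0.837, exact binomial p adjusted over 4 chromosomes = 0.025). On V the pairing centre (left) arm held 20 groups and the right arm 7, a ratio of 2.86 (1.16 to 8.00, exact binomial adjusted p = 0.025). With a reciprocal overlap of 50% neither II (0.222, exact binomial adjusted p = 0.154) nor V (1.72, exact binomial adjusted p = 0.385) passed, and in the upper 50% of peaks by q neither did (0.375 and 1.80, exact binomial adjusted p = 0.453 for both). On III there were 4 groups on the pairing centre arm and 5 on the other, a ratio of 0.799 (0.159 to 3.71), and on IV 12 and 13, a ratio of 0.924 (0.385 to 2.20). Neither III nor IV passed (exact binomial adjusted p = 1 for both), and their intervals leave room for differences in either direction.

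**Figure D2:**
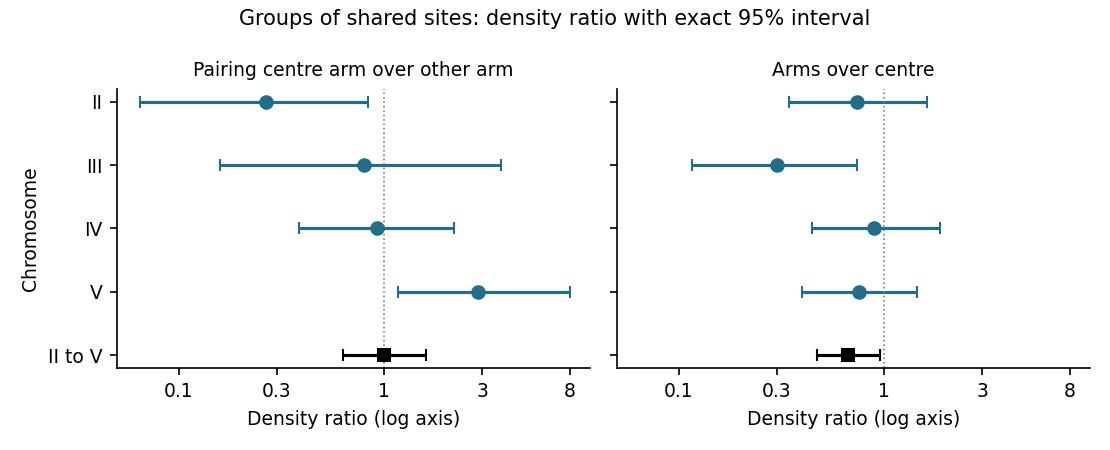
Density of groups of shared sites on the pairing centre arm over the other arm, and on the arms over the centre, for each chromosome (circles) and for II to V together (squares), with exact 95% intervals on a log axis. II lies at 0.267 and V at 2.86 for the pairing centre arm, and all 4 chromosomes lie below 1 for arms over centre.

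Each replicate by itself gave the same directions on II and V. II left had 9 peaks in A against 41 on II right, and in B it had 18 against 60. V left had 48 peaks in A against 30 on V right, and in B it had 55 against 30. Counted as groups of peaks, the ratio on II was 0.318 in A (exact binomial adjusted p = 0.0209) and 0.560 in B (exact binomial adjusted p = 0.161). On V it was 2.06 in A (exact binomial adjusted p = 0.0306) and 2.07 in B (exact binomial adjusted p = 0.0904), so neither chromosome passed in B alone. With every shared site counted singly, V stood at 1.63 (exact binomial adjusted p = 0.252), as its right arm had 16 sites in 7 groups and its left arm 26 sites in 20. The same count gave 0.148 on II (exact binomial adjusted p = 7.71e-05), with 4 sites on the left arm and 27 on the right. Of those 27, 19 lay in groups and are not independent, so this p is too small and the count by groups is the one to read.

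Peaks were spread unevenly within an arm, which the exact binomial tests do not allow for. The first and second Mb from the end of II left had no peak in A, and had 4 and 3 in B. The second Mb from the end of III right and the sixth from the end of V right had none in either replicate. The fullest Mb of B was the fifth from the end of II right, with 19 peaks, where A had 11. The fullest of A was the sixth from the end of V left, with 16 peaks, where B had 15. Of 40 whole bins of 1 Mb, 4 were empty in A and 3 in B, and the median was 4.5 peaks in each. With the outer 25% at each end taken as arms, II left held 0 groups, and its ratio to II right had an upper limit of 0.398 (exact binomial adjusted p = 0.00391). Under the same limits V did not pass (1.83, exact binomial adjusted p = 0.443).

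The 3 shared sites of highest mean fold on each arm, 24 in all, had geometric means of both folds between 5.55 and 16.6. High local control, a control above 2 times the genome background in at least 1 replicate, was found at 9 of them. It was found at 35 of all 121 shared arm sites and at 12 of the 88 in the centres. A genome of the ce10 build was not used here, so no gene or sequence is given for a site.

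On II, the right arm held the arm site of highest mean fold, at 13461676 to 13462548. It had 63 pileup tags and a fold of 19.2 in A and 37 tags and a fold of 14.5 in B, with summits 7 bp apart and a control at the genome background in both. A further site at 13469061 to 13469847 had 41 tags in each replicate and folds of 11.1 in A and 15.99 in B. Both belonged to a group of 5 sites between 13460719 and 13469847, none of high control. The third site of that arm, at 10390403 to 10390729, had folds of 9.28 in A and 8.41 in B, in a group of 4.

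The left arm of II had no site of that strength. Its first, at 3994680 to 3994809, had folds of 6.22 in A and 10.3 in B over a control of 4.86 and 3.39 times the genome background. Its next, at 4745367 to 4745569, had folds of 7.77 in A and 5.23 in B. The third, at 4925358 to 4925679, had 5.39 in A and 6.45 in B. None of the 4 shared sites of II left had another within 5 kb.

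On III, the right arm was led by a pair of high-control sites. The first, at 10224985 to 10225403, had 118 tags in A and 97 in B with folds of 7.67 and 15.1, and its summits coincided. The second, at 10224588 to 10224729, had 89 tags in A and 72 in B with folds of 6.002 and 9.65. The third, at 9546035 to 9546195, had a control at the genome background and folds of 5.39 in A and 5.71 in B. The left arm was led by 1301527 to 1301778, with folds of 7.25 in A and 7.99 in B. It lay in a group of 3 sites between 1299745 and 1301778, of which the other 2 had high control. Next on that arm came 2499413 to 2499512, of high control (5.33 in A and 10.7 in B), and 1018807 to 1018892 (6.19 and 9.14).

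On IV, the 3 strongest sites of the left arm formed 1 group at 3652235 to 3654589, with folds of 8.42 to 11.4 in A and 5.71 to 7.61 in B. All 3 had a higher fold in A, and none had high control. On the right arm the site at 13395002 to 13395685 had folds of 13.2 in A and 10.3 in B, within a group of 4 between 13393218 and 13396613 that had no high control. The next, at 13549414 to 13549528, was narrow and of high control, with 88 tags in A and 75 in B and folds of 7.30 and 12.4. The third, at 11961583 to 11962387, was 805 bp wide in A and 228 bp in B, with folds of 11.3 and 7.74.

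On V, the right arm held 2 groups of 5 sites that differed in control. The group between 16707365 and 16709411 packed its sites into 2.05 kb, all of high control, with median folds of 6.18 in A and 9.17 in B. Its leading members, at 16708435 to 16708765 and 16707900 to 16708322, had folds of 6.18 and 6.63 in A and of 15.3 and 12.3 in B. The group between 19519722 and 19529624 spread over 9.90 kb with no high control. Its strongest site, at 19529137 to 19529624, was the strongest of the arm, with folds of 16.2 in A and 11.2 in B.

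The left arm of V was led by 5768212 to 5768759, with folds of 8.69 in A and 9.14 in B and no high control. Its next sites, at 266337 to 266458 and 265068 to 265461, had folds of 6.16 and 6.23 in A and of 12.2 and 11.7 in B. They belonged to a group of 3 sites within 1.39 kb near the left end, all of high control. The median control there was 8.15 times the genome background in A and 4.59 times in B.

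The median shape and signal of arm peaks lay close to those of the centres. Median width was 142 bp on the arms and 148 bp in the centres in A, and 126 bp and 128 bp in B. The narrowest arm peaks were as wide as the modelled fragment, 81 bp in A (20 peaks) and 72 bp in B (25 peaks). The widest were 832 bp in A, at the leading site of II right, and 981 bp in B, on III right at 10907457 to 10908437. Median pileup was 17 tags on the arms and 16 in the centres in A, and 14 tags in both in B. Median fold was 4.59 on the arms and 4.40 in the centres in A, and 5.33 and 5.29 in B.

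For most measures these differences were smaller than their spread between chromosomes. The log2 ratio of arm to centre medians averaged -0.09 ± 0.08 for width, 0.08 ± 0.17 for pileup and 0.07 ± 0.11 for fold in A (SD, n = 4 chromosomes). In B it averaged 0.02 ± 0.08 for width, 0.01 ± 0.16 for pileup and 0.05 ± 0.11 for fold. Pairing centre arms over other arms gave mean log2 ratios of -0.15 to 0.08. An exact sign permutation over 4 chromosomes cannot give a p below 1 in 8, so none of the 16 such comparisons could pass. The median control was lower on the arms than in the centre on 4 of 4 chromosomes in A, which gives that smallest p (mean log2 ratio -0.07), and on 3 of 4 in B (-0.05). On V in A the medians were almost equal, 2.6228 tags on the arms and 2.6241 in the centre.

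Arms held a larger share of peaks on a raised control than centres did. In A, 47 of 235 arm peaks (20.0%) had high control, against 12 of 176 (6.82%) in the centres. In B there were 42 of 268 (15.7%) on the arms, against 14 of 209 (6.70%) in the centres. Over all nuclear peaks the share was 14.7% in A and 11.2% in B. Arms exceeded centres by 13.2 points in A (95% Newcombe interval 6.58 to 19.5) and by 8.97 points in B (3.24 to 14.5). With high control set at 1.5 times the genome background, the excess was 8.49 points in A (0.900 to 15.7) and 6.01 in B (-1.28 to 13.0), and the interval in B included 0. The highest control on the arms was 11.4 times the genome background in A and 6.59 times in B, against 6.50 and 3.80 times in the centres.

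The excess was widest on V and rested largely on it. On V, 21 of 78 arm peaks of A had high control against 0 of 54 in the centre, and 21 of 85 of B against 2 of 56. On II there were 8 of 50 against 0 of 35 in A, and 8 of 78 against 2 of 51 in B. On III there were 7 of 33 against 6 of 43 in A, and 6 of 42 against 4 of 50 in B. On IV there were 11 of 74 against 6 of 44 in A, and 7 of 63 against 6 of 52 in B. Without V the excess was 6.72 points in A (-1.53 to 14.5) and 3.63 in B (-2.97 to 9.99), intervals that include no difference. With each group of peaks counted once it was 12.1 points in A (3.97 to 19.8) and 6.21 in B (-2.69 to 14.5). Pairing centre arms had high control at 18.8% of peaks in A against 21.2% on the other arms, and at 15.1% against 16.1% in B. The intervals of that difference ran between -12.6 and 7.89 points in A and between -9.58 and 8.07 in B.

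**Figure D3:**
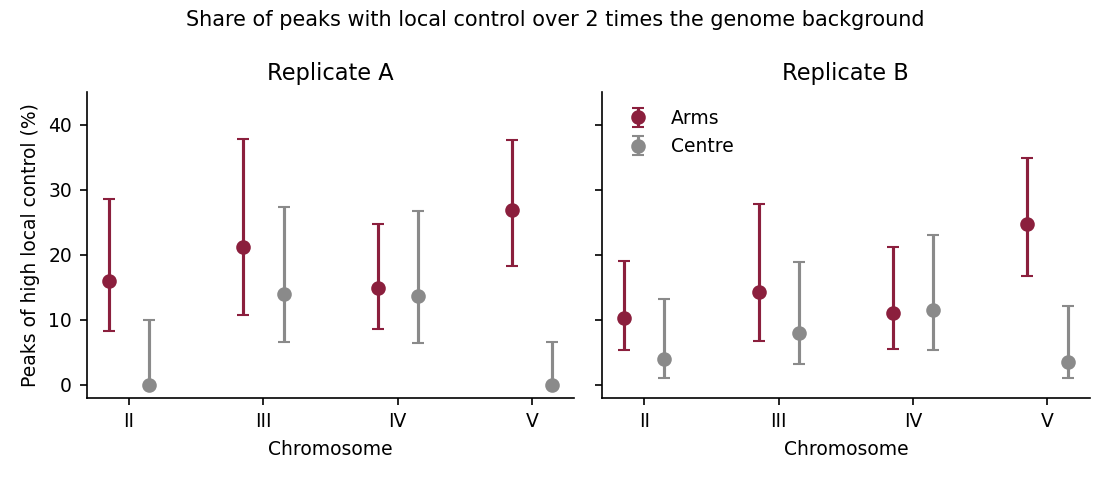
Percentage of peaks whose local control exceeded 2 times the genome background, on the arms and in the centre of each chromosome, with 95% Wilson intervals, in replicates A and B. On V the arms reached 26.9% and 24.7% and the centre 0% and 3.57%, while on IV arms and centre lay within 1.23 points of each other.

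High-control arm peaks had a higher pileup than the other arm peaks, with a median of 48 tags against 15 in A and 49.5 against 13 in B. A peak over a higher control needs a higher pileup to be called, so the calling favours such a difference, which is given as a description. The lowest pileup among the high-control arm peaks was 18 tags in A and 15 in B. How much of the difference comes from the calling was not tested. Their median fold was 4.24 against 4.78 in A and 8.22 against 5.03 in B, so it was the lower of the pair in A and the higher in B. The shared arm site of highest control in A was on III left at 931269 to 931651. There 110 tags in A and 117 in B stood over 11.4 and 6.59 times the genome background and gave folds of 4.02 and 10.1. Next came V left at 265540 to 265891, with folds of 5.27 in A and 9.21 in B, and V right at 16708844 to 16709050, with 4.59 and 8.02.

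No difference in sharing was detectable between arms and centres. In A, 125 of 235 arm peaks (53.2%, Wilson interval 46.8 to 59.5%) overlapped a B peak by 1 bp or more, against 53.4% in the centres and 54.8% of all nuclear peaks. In B, 125 of 268 arm peaks (46.6%, 40.8 to 52.6%) overlapped an A peak, against 45.5% in the centres and 49.1% of all nuclear peaks. Arms minus centres came to -0.22 points in A (-9.85 to 9.46) and 1.19 points in B (-7.78 to 10.1). Without high-control peaks the difference was -3.19 points in A (-13.5 to 7.20) and -3.61 in B (-13.0 to 5.84).

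On the arms, high-control peaks were shared more often than the others. The counts were 37 of 47 (78.7%) against 88 of 188 (46.8%) in A, a difference of 31.9 points (16.5 to 43.5). In B they were 30 of 42 (71.4%) against 95 of 226 (42.0%), a difference of 29.4 points (13.0 to 42.4). In the centres of A, 94 of 176 peaks (53.4%) were shared, and 82 of 164 (50.0%) once high-control peaks were left out. In the centres of B the counts were 95 of 209 (45.5%) and 89 of 195 (45.6%). Leaving them out thus lowered the centre share in A but not in B. Peaks of the narrowest width were shared less often, 3 of 20 against 122 of 215 wider ones in A (-41.7 points, -53.4 to -19.7) and 4 of 25 against 121 of 243 in B (-33.8 points, -45.2 to -14.1). Shared arm peaks had a median width of 192 bp in A against 119 bp at unshared ones, and of 189 bp against 110 bp in B. All these measures come from the same calls. A wider peak also has more bases in which to overlap another by 1 bp, so width enters the criterion of sharing itself.

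Single arms ranged between 22.2 and 65.9% shared. Pairing centre arms shared 54 of 117 peaks (46.2%) in A, against 71 of 118 (60.2%) on the other arms, a difference of -14.0 points (-26.1 to -1.27). The interval in A included 0 where sharing required summits within 100 bp (-10.7 points, -22.9 to 1.97) and without high-control peaks (-11.6 points, -25.2 to 2.58). In B they shared 52 of 119 (43.7%) against 73 of 149 (49.0%), a difference of -5.30 points (-17.0 to 6.66) whose interval includes 0. II left shared 4 of 9 peaks in A against 27 of 41 on II right, and 4 of 18 against 29 of 60 in B. III right shared 5 of 17 in A against 9 of 16 on III left, and 5 of 18 against 9 of 24 in B. IV left went opposite ways, with 17 of 43 against 19 of 31 on IV right in A and 17 of 28 against 18 of 35 in B. V left did so too, with 28 of 48 against 16 of 30 on V right in A and 26 of 55 against 17 of 30 in B.

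Of 110 unshared arm peaks in A, 36 (32.7%) had a B peak within 5 kb, against 26 of 82 (31.7%) in the centres. Of 143 in B, 56 (39.2%) had an A peak within that distance, against 49 of 114 (43.0%) in the centres. The differences were 1.02 points in A (-12.4 to 13.9) and -3.82 in B (-15.7 to 8.13). The strongest in A were on V right at 14831587 to 14831790 (fold 6.891), III right at 11026623 to 11026894 (6.886) and V right at 14135173 to 14135339 (6.45), with the nearest B peak 62088, 117212 and 227181 bp away. The strongest in B were on V left at 5285252 to 5285590 (fold 11.0), III right at 10908944 to 10909836 (9.62) and III left at 2500157 to 2500234 (8.75), with the nearest A peak 642, 89343 and 735 bp away. The one on III right was among 7 peaks of B between 10904241 and 10909836, none of which was shared.

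Over the 4 chromosomes together, no difference in close spacing was detectable between arms and centres. Another peak of the same replicate lay within 5 kb of 126 of 235 arm peaks in A (53.6%) and of 178 of 268 in B (66.4%), next to 53.9% and 66.4% of all nuclear peaks. In the centres the shares were 51.7% in A and 68.4% in B, so arms minus centres came to 1.91 points (-7.76 to 11.6) and -2.003 points (-10.3 to 6.51). Of the single chromosomes, IV in B had an interval that excluded 0, with 36 of 63 arm peaks (57.1%) against 40 of 52 (76.9%) in its centre (-19.8 points, -35.2 to -2.41), and in A it had 50.0% against 54.5% (-4.55 points, -22.2 to 13.7). A neighbour within 2 kb was found for 105 of 235 arm peaks of A and 158 of 268 of B. In the centres the counts were 73 of 176 peaks in A and 127 of 209 in B. The median distance to the nearest peak on the arms was 3300 bp in A against 4213 bp in the centres, and 1179 bp against 1190 bp in B. The most isolated arm peak of A had its summit at 2570852 on II left and the next one at 3959349. In the centres the longest distance to a nearest summit in A was 401412 bp.

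**Figure D4:**
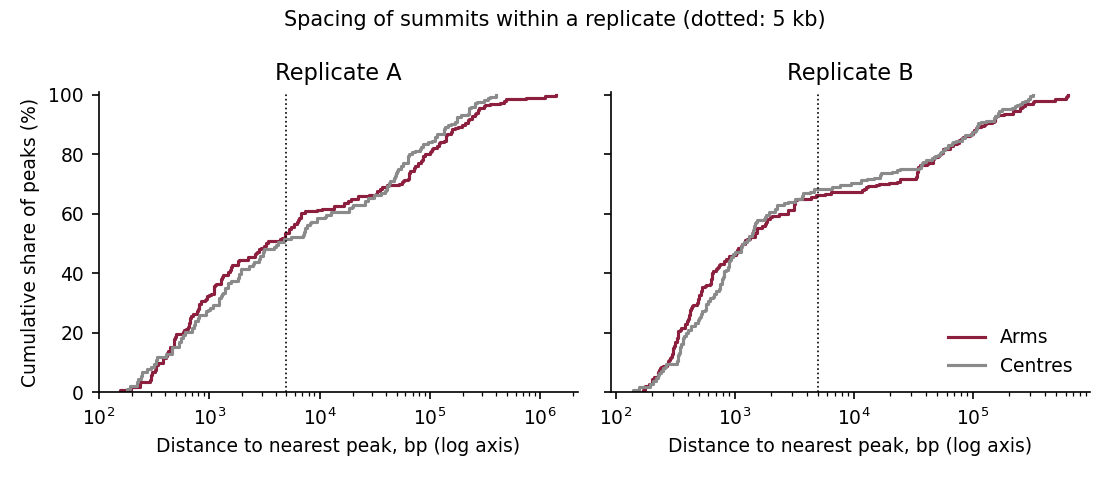
Cumulative percentage of peaks by distance to the nearest summit of the same replicate (log axis) on the arms and in the centres, with 5 kb dotted. The curves lie close together, at 53.6% and 51.7% by 5 kb in replicate A and at 66.4% and 68.4% in replicate B.

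Pairing centre arms had fewer close neighbours than the other arms in B, with 70 of 119 peaks (58.8%) against 108 of 149 (72.5%) within 5 kb of another (-13.7 points, -24.8 to -2.26). That interval included 0 in the upper 50% of peaks by q (-13.5 points, -29.4 to 2.81) and for a neighbour within 2 kb (-7.79 points, -19.4 to 3.99). In A the counts were 58 of 117 against 68 of 118 (-8.05 points, -20.4 to 4.64), an interval that includes 0. At least 3 shared sites were held by 8 of the 80 groups on the arms and by 4 of the 60 in the centres. Of the 8 arm groups, 2 were among the 40 of the pairing centre arms, on IV left and V left. The other 6 were among the 40 of the other arms, and the difference was not tested. The 8 groups held 32 of the 121 shared arm sites. High-control sites were included in 4 of the 8, and made up 35 of the 121 sites. The fullest chain of arm peaks in B was 10 peaks over 6.57 kb on II right, between 10924723 and 10931293, of which 2 were shared. The fullest in A was 8 peaks over 14.0 kb on V right, between 19519747 and 19533700, of which 5 were shared.

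At the 121 shared arm sites the summits of A and B lay a median of 37 bp apart, and within 100 bp at 99 sites (81.8%). They lay closer at the 35 high-control sites, with a median of 3 bp, than at the other 86, with 53 bp. The high-control sites were also narrower, with median widths of 124 bp in A and 129 bp in B, against 228 and 198.5 bp. In the centres the median was 8.5 bp at 12 high-control sites and 37.5 bp at the other 76, so the contrast was not particular to the arms. Across all 121 sites Spearman's rho between A and B was 0.82 for pileup and 0.20 for fold, given as a description of sites from the same libraries. Within the 2 classes the values lay closer together. At the 86 sites without high control rho was 0.61 for pileup and 0.51 for fold, and at the 35 high-control sites 0.81 and 0.46. At the 86 sites the median fold was 5.55 in A and 5.71 in B, and fold was higher in A at 39 sites and in B at 47.

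At the 35 high-control arm sites B had the higher fold at 35 of 35, with a median of 4.59 in A and 9.65 in B. In the centres B was higher at 12 of 12 such sites, with a median of 3.77 in A and 7.91 in B. The median pileup at the arm sites was 49 tags in A and 52 in B, while the median control was 11.4 tags in A and 5.13 in B. The fold is built from both values, so the difference in control enters it directly. Among sites without high control, rho for the fold was 0.35 at 37 sites on pairing centre arms and 0.60 at 49 on the other arms, and the difference was not tested.

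**Figure D5:**
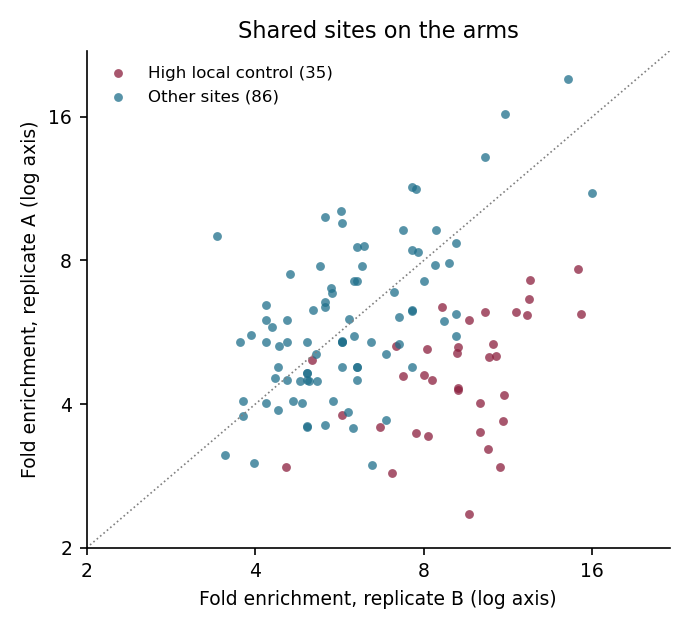
Fold enrichment in replicate A against replicate B at the 121 shared arm sites on log axes, coloured by local control, with equal folds dotted. All 35 high-control sites lie on the replicate B side of the dotted line, and the other 86 sites lie on both sides of it.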

How the data were processed

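ChIP-seq of MML-1 was done in L3 larvae. The submitters' processing notes name Bowtie, without a version, and ce10. Per the file headers, MACS2 2.1.0.20151222 called each replicate separately against 1 control with a q threshold of 0.05 and 1 tag per position and strand. The deposited pileup signal, the fold (a ratio), the −log10 p and −log10 q values are the authors'. Local control was solved from fold and pileup. Mitochondrial peaks (2 in each replicate) were not used. The lengths of ce10 chromosomes came from general knowledge of that build.

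The members and lists were chosen with earlier results of these data known. Sites are connected sets of peaks that overlap by at least 1 bp, shown by the pair with the longest overlap, and groups are chains of summits within 5 kb. Densities were compared by two-sided exact binomial tests with Benjamini-Hochberg adjustment over 4 chromosomes. Medians were compared by exact sign permutation over chromosomes, and shares by Wilson and Newcombe 95% intervals. Intervals and binomial p-values cover counting error only, and peaks of a group are not independent. The binomial tests also take groups as placed independently along an arm. Named regions are the 3 shared sites of highest mean fold per arm, the fullest group of shared sites on each arm that has one of at least 3, the 3 unshared peaks of highest fold per replicate, the 3 shared sites of highest control in replicate A, and the narrowest and widest peaks. Named after their values were seen were the chains of peaks in single replicates and the second group of 5 sites on V right, which tied with the first in size. The pooled density test between arm sets, the overlap step and the sign permutation were checked on made-up input. Positions simulated for the density test were independent and uniform, so that check does not cover clustered or uneven peaks. Scripts ran in Python 3.11.15 with scipy 1.17.1, pandas 2.3.3, numpy 2.4.6 and, for figures, matplotlib 3.10.9.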

Additional observations from a re-analysis of the deposited data

How the results depend on the processing

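No paired analysis was possible because no comparison made here is between the ChIP and input samples, which enter only through the authors' calls. That statement covers only the pairing of ChIP with input samples by replicate label. Medians were paired by chromosome, and shared sites were compared between A and B site by site. Of 189 values recomputed under alternatives, 140 had the direction and call of the main value or lay within its error. Leaving out chromosomes, the other control limits, and the alternatives for the share of high control were chosen after seeing the data. The pooled pairing centre ratio was 1.44 without II and passed under no alternative. For II, 0.222 with 50% reciprocal overlap and 0.375 in the upper 50% by q did not pass, and single replicates gave 0.318 to 0.560. For V, 1.63 with every site counted, 1.72 with 50% overlap, 1.80 in the upper 50% and 1.83 with the outer 25% at each end as arms did not pass, and single replicates gave 2.06 to 2.07. Ratios near 1 changed side on III with replicate B left out (1.08, against 0.714 with A left out), and on IV with either left out (1.00 to 1.27), without high control (1.38) and with the outer 25% (1.13). Arms over centres did not pass at 0.782 with summits within 100 bp and 0.644 in the upper 50%.

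In the upper 50% by q, which holds fewer peaks, the mean log2 ratio of pairing centre to other arms was -0.43 for pileup, -0.29 for control and -0.081 for fold in replicate A, and -0.24 for control and 0.024 for fold in replicate B. That of arms to centres was -0.50 for width, 0.17 for control and -0.11 for fold in replicate A, and -0.15 for width and 0.13 for control in replicate B. With the outer 25%, control and fold of replicate A were 0.47 and -0.23 between the arms, and width of replicate A against the centres was 0.000435. Without high control that width was 0.032. The cause was not tested.

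Arm peaks shared made up 34.0 and 29.9% with 50% overlap, 43.8 and 38.4% with summits within 100 bp, 64.9 and 53.6% in the upper 50% and 46.8 and 39.8% with high-control peaks left out of both lists (A and B). A neighbour lay within 2 kb of 44.7 and 59.0%, and within 10 kb of 61.3% in A. High control held at 29.8 and 28.3% of arm peaks in the upper 50%, where arms exceeded centres by 19.6 and 15.9 points. In replicate B it held at 22.8% above 1.5 times, 8.58% above 3 times and 11.5% without V, and without II and V the excess was 3.03 points in A and 2.58 in B. The effect of the number of distinct ChIP tags on these lists was not tested.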
